A study of Mus musculus with 2 samples.

Results

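The genes described here encode proteins of vesicle traffic between the membranes of the cell. They were the RefSeq protein-coding genes whose symbols read Rab, Sec, Arf or Trappc followed by a digit, or started with Copa, Copb, Copg, Copz or Cope, and there were 127 of them among 21779 protein-coding genes of mouse build GRCm38. The rule reads gene symbols only, though it was proposed with earlier results of these data known. The data are a chromatin immunoprecipitation experiment with sequencing (ChIP-seq) on hearts of C57BL/6 embryos at E12.5, with 1 library pulled down by a rabbit antibody against Sap130 (2 µg) and 1 input library made without antibody. The labels give no treatment, genetic change or number of hearts. Sap130 belongs to Sin3, a corepressor assembly that removes acetyl groups from histones, and the study examined where it binds in the embryonic heart. What was deposited is a list of 14886 peak summits, each 1 base long, with a score that is the −log10 of a p or q value for ChIP against input; 14881 of them lay on nuclear chromosomes. The heart at this stage holds muscle, endocardial, epicardial and blood cells. At a low score, strong binding in few cell types and weak binding in all of them therefore cannot be told apart. A binding list holds no expression, so the labelled tissue was not checked against its markers.

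Vesicle traffic starts where the Sec61 channel threads new proteins into the endoplasmic reticulum. COPII coats, built from Sec proteins, bud vesicles towards the Golgi, and COPI coats, recruited by Arf GTPases, carry material back. TRAPP complexes tether arriving vesicles and switch on Rab proteins, small GTPases that give each compartment its identity and direct movement, docking and fusion. Many of these proteins are needed in every cell, while some Rabs and some members of gene pairs serve secretory, pigment or epithelial cells.

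Most of the vesicle genes carried a Sap130 summit. A gene was counted as marked when a summit lay inside it or within 1000 bp of its first or last base, and 105 of the 127 genes were marked (82.7%, exact 95% interval 75 to 88.8), against 55% of all protein-coding genes. A summit within 1000 bp of a gene boundary was found for 102 of the 127 (80.3%), against 48.4% of all. Median gene length was 25445 bp for the marked vesicle genes and 24690 bp for the 22 without a summit, against 25354 and 9452 bp for all marked and unmarked protein-coding genes. The 127 vesicle genes were longer than protein-coding genes at large (medians of 25445 and 17217 bp), and the part of length in the shares marked was not tested. Their promoters were also richer in CpG, as given below, and that part was not tested either. With 1 library there is no replicate error, so no test was made; the intervals cover counting error over genes only, and genes of a family are not replicates.

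The families differed in how many members were marked, set against 55% of all protein-coding genes. Every member was marked among the COPI coat genes (8 of 8), the translocon and signal peptidase genes (8 of 8), the Arf genes (6 of 6) and the effectors and regulators named after a Rab (10 of 10). TRAPP genes were marked in 14 of 15 cases (93.3%) and COPII coat genes in 9 of 11 (81.8%). The Rab GTPases themselves were marked in 45 of 59 cases (76.3%, exact interval 63.4 to 86.4), and the other Sec genes in 5 of 10 (50%, 18.7 to 81.3). The intervals of the small families were wide, from 63.1 to 100 for 8 of 8 and from 54.1 to 100 for 6 of 6, and they overlapped those of the Rab GTPases. Differences between families were not tested.

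**Figure D1:**
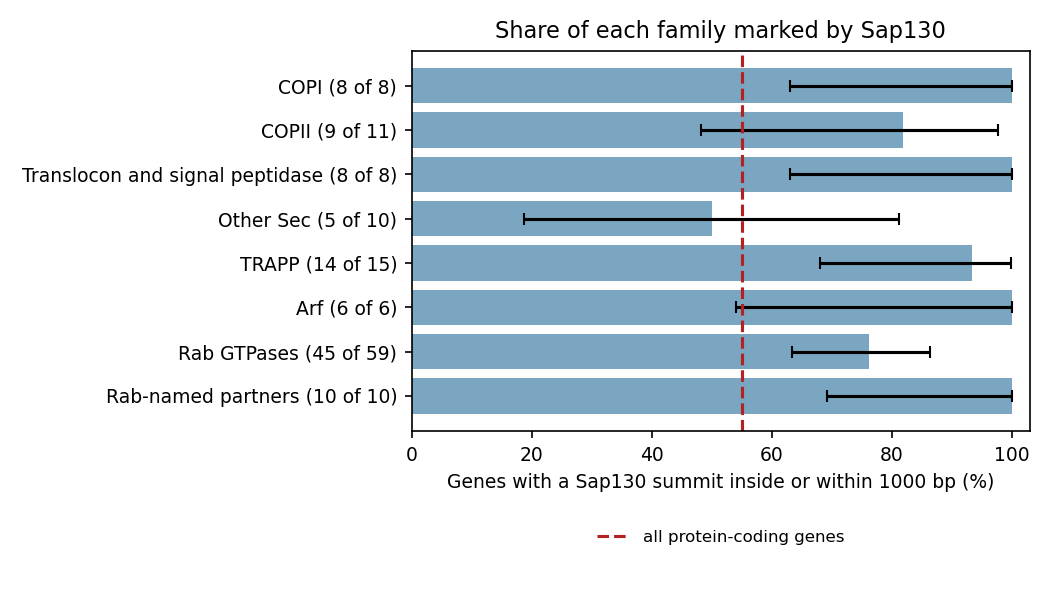
Share of each family's genes with a Sap130 summit inside the gene or within 1000 bp of it, in percent. Bars give the share, whiskers the exact 95% interval, and the dashed line the share of all protein-coding genes. The other Sec genes, at 50%, were the family below the line.

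Scores ranked the families in another order. The highest summit of a marked vesicle gene had a median score of 54.8 (range 5.65 to 279), against 48.9 over all 11972 marked protein-coding genes, whose quartiles were 23.9 and 78.6. Family medians were 77.7 for the Rab-named partners, 76.6 for translocon and signal peptidase, 76.2 for Arf, 66.2 for other Sec, 59.2 for COPII, 54.1 for COPI, 47.6 for Rab GTPases and 45.5 for TRAPP. This order depended on which summits were read. From summits near a listed start the medians were 91.0 for Rab-named partners, 70.4 for Arf, 66.2 for other Sec, 59.2 for COPII, 55.1 for the 6 translocon and signal peptidase genes with such a summit, 50.7 for Rab GTPases, 45.5 for TRAPP and 42.9 for COPI, against 50.1 over all genes. From summits in reach of no other gene, translocon and signal peptidase had 90.0 and COPI 44.3, against 44.2 over all genes. COPI thus lay above the median of all genes with its highest summits and below it at starts. The score ranges of all 8 families overlapped. A summit in the upper quartile of all scores, at or above 65.2, was in reach of 40 of the 127 vesicle genes (31.5%), against 19.5% of protein-coding genes. By family these were 6 of 10 Rab-named partners, 4 of 6 Arf genes, 4 of 8 translocon and signal peptidase genes, 4 of 11 COPII genes, 3 of 8 COPI genes, 3 of 10 other Sec genes, 13 of 59 Rab GTPases and 3 of 15 TRAPP genes.

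**Figure D2:**
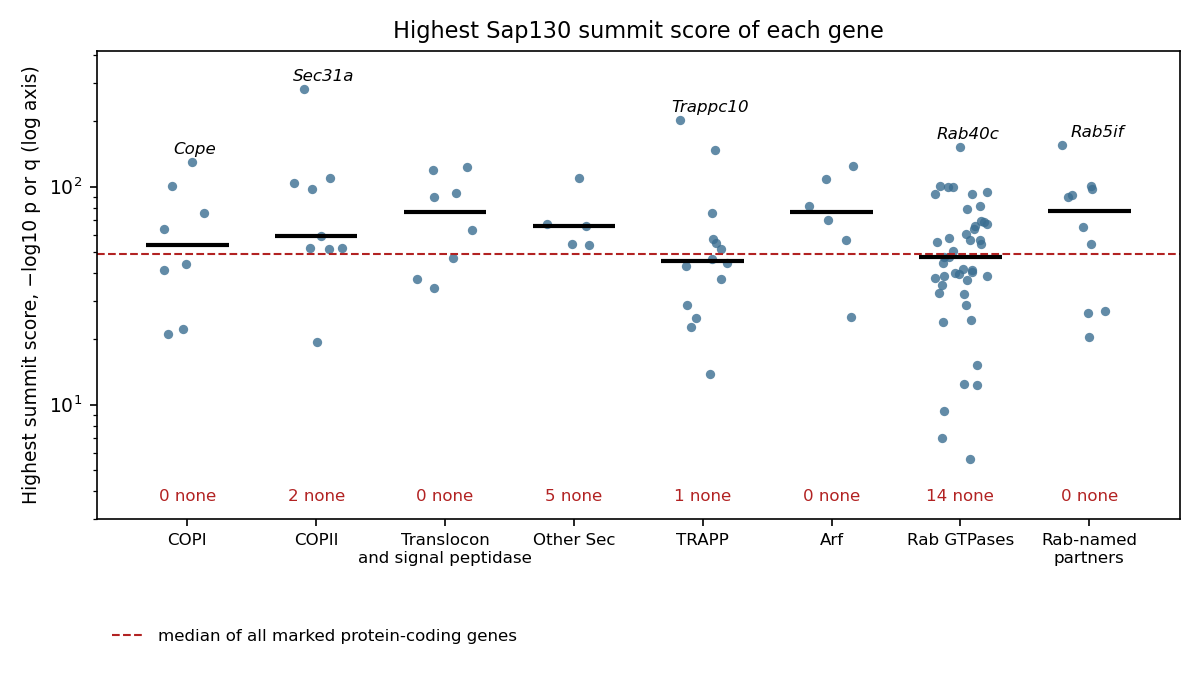
Highest summit score of each marked gene, on a log axis, by family. Each point is a gene, the black bars are family medians, the dashed line is the median over all marked protein-coding genes (48.9), and the red counts give the genes with no summit. Sec31a (279) and Trappc10 (202) stood highest.

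COPI is the coat of vesicles that return from the Golgi to the endoplasmic reticulum, and all 8 of its genes under these names were marked. Cope, of the epsilon subunit, had the highest score of 130, from a summit 392 bp upstream of the gene that was also in reach of Ddx49. Copb1 and Copb2, of the beta and beta-prime subunits, had scores of 101 and 76.0, at 152 and 185 bp downstream of their starts. Copg1, of a gamma subunit, had 63.9 from a summit 740 bp beyond its last base that was shared with Hmces, while the summit 142 bp downstream of its own start had 34.9. Copz1, of a zeta subunit, had 44.3 and Copa, of the alpha subunit, 41.5. The alternative gamma and zeta genes were the lowest, with 22.1 at Copg2 and 21.1 at Copz2. Copa and Copg2 each had 1 summit, shared with Ncstn and Tsga13.

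COPII drives exit from the endoplasmic reticulum, and its outer cage gene Sec31a (chr5:100361649-100416273, minus strand) had the highest score of all 127 genes. That score was 279, at or above 99.9% of marked protein-coding genes, from a summit at position 100416117, which is 117 bp downstream of the start and in reach of no other gene. Sec31b, its relative on chromosome 19 (44516957 to 44545848), had no summit, and the nearest lay 9376 bp from its ends. The 250 bases before the start of each, from the RefSeq promoter table of build GRCm38.p6, are shown because Sec31a had the highest score and its relative no summit; capitals mark matches to the core of the sites of Ets factors, CCGGAAG on either strand.

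Sec31a, chr5:100416235-100416484, minus strand: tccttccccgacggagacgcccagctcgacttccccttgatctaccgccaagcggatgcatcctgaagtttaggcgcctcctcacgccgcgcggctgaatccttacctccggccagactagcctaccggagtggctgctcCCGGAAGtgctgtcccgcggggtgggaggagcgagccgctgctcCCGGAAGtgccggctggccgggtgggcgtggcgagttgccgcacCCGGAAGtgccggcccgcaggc

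Sec31b, chr19:44545849-44546098, minus strand: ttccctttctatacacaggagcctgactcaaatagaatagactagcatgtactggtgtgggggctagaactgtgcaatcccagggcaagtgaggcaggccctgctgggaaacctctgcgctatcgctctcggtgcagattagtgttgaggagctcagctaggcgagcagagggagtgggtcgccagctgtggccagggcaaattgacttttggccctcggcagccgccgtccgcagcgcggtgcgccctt

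The Sec31a sequence held CCGGAAG at 3 places, starting 110, 66 and 22 bases before the start (positions -110, -66 and -22), and 27 CpG dinucleotides. Sec31b held none of the 11 motifs searched in its 300 base window, and 12 CpG dinucleotides in the 250 bases printed. A match is a description of the letters and was not tested as a binding site.

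The inner coat and scaffold genes of COPII ranged from high scores to none. Sec24c and Sec24a, which encode cargo adaptors, had 110 and 97.8. The Sec24c value came from a summit 308 bp past its far end shared with Fut11, and at its own start the score was 60.4. Sec16a, the scaffold of exit sites, had 3 summits, of which the highest (104) lay 239 bp downstream of a listed start. Sec24b had 59.2, Sec24d 52.5, Sec23a 52.1 and Sec13, of the outer cage, 51.9. Sec23b, the relative of Sec23a, had 19.3 from a summit 410 bp upstream of the gene. Sec16b had none within 94257 bp of its ends.

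Genes of entry into the endoplasmic reticulum were all marked. Sec63 and Sec62, which assist the channel in import after translation, had 123 and 90.0. Sec61a1, of the channel subunit itself, had 120, against 37.6 for its relative Sec61a2, while the small subunit genes Sec61b and Sec61g had 63.1 and 34.1. The higher of 2 Sec61b summits lay 497 bp upstream, in reach of Alg2, and the other 245 bp downstream of the start had 26.4. Among the signal peptidase genes, which encode the catalytic subunits that cut signal peptides, Sec11c had 93.2 and Sec11a 47.1.

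Of the remaining Sec genes 5 of 10 were marked, against 55% of all protein-coding genes. All 3 Sec22 genes, of SNARE proteins and their relatives in early secretion, had a summit, with 67.5 at Sec22c, 54.3 at Sec22a and 54.2 at Sec22b. Sec23ip, of a Sec23 interacting protein, had 66.2. Of the Sec14-like genes, which encode lipid transfer proteins, Sec14l1 had 110 from a summit 267 bp downstream of its start and a second of 10.01 at 339 bp upstream. Sec14l2, Sec14l3 and Sec14l4, which lie side by side on chromosome 11, had none, and neither had Sec14l5. Sec1, a fucosyltransferase gene that shares the symbol but is not known for vesicle traffic, had none.

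TRAPP genes were nearly all marked, but mostly by summits shared with a neighbour. The highest summit was in reach of another protein-coding gene for 8 of 14 marked TRAPP genes (57.1%), against 23.8% of all marked vesicle genes and 25.4% of all marked protein-coding genes. Trappc10, of the TRAPPII complex, had 202 from a summit 439 bp beyond its last base and shared with Pwp2, and 58.3 at a summit 1 bp from its own start. Trappc4, a core subunit gene, had 147 from a summit 313 bp outside, shared with the ribosomal protein gene Rps25. Trappc11, of TRAPPIII, had 75.4 at 401 bp upstream and 30.7 at 132 bp downstream, both shared with Rwdd4a. Without shared summits 7 of the 15 TRAPP genes stayed marked (46.7%), against 42.4% of protein-coding genes.

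Unshared summits among TRAPP genes had scores of 57.5 at Trappc8 and 44.7 at Trappc12, which belong to TRAPPIII, and of 55.0 at Trappc3 and 46.3 at Trappc6b, which encode core subunits. Trappc9, of TRAPPII, had 37.5 near its right boundary and 2 more summits, of 21.0 and 5.49, deep inside a gene of 471619 bp. Trappc5 had 28.5. The rest of the shared values were 51.9 at Trappc6a, 43.3 at Trappc13, 24.9 at Trappc1, 22.7 at Trappc2l and 13.9 at Trappc2, which shared its summits with Ofd1, a gene of centrosomes and cilia. Trappc3l, the relative of Trappc3, was the unmarked TRAPP gene.

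Arf GTPases recruit coats to membranes, and all 6 genes were marked within 310 bp of a boundary. Arf3 had 124, from a summit in reach of a second, uncharacterised locus, Arf6, of plasma membrane traffic, 108, and Arf4 81.9. Arf1, the Golgi Arf that recruits COPI, had 70.4, Arf2 56.7 and Arf5 25.2. Each had 1 summit, inside the gene.

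Rab GTPases of the endoplasmic reticulum and Golgi were all marked (11 of 11), against 55% of all protein-coding genes. Their median score was 40.0. The Rab groups here and below were sorted by hand, by textbook site of action. Rab2a, which acts in early Golgi traffic, had 94.5, Rab6a, of traffic at the Golgi, 92.2 and Rab1a, of the step from the endoplasmic reticulum to the Golgi, 79.3. Their relatives Rab2b, Rab6b and Rab1b had 37.3, 24.4 and 44.7. The single summit of Rab6a was shared with Mrpl48, and that of Rab2b lay 373 bp outside the gene, shared with Tox4. The Rab1b value belonged to a summit at the far end shared with Cnih2, and the summit 127 bp downstream of its start had 30.1 and was shared with Klc2. Rab1b, Rab2b and Rab6a thus had no summit of their own. Rab43 had 57.2, Rab18, of lipid droplets and the endoplasmic reticulum, 40.0, Rab33b 38.0, Rab30 28.5 and Rab33a 15.3.

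Of the endosomal and recycling Rabs 14 of 16 were marked, against 55% of all protein-coding genes, with a median of 60.0. Rab11a, the main Rab of recycling endosomes, had 101, Rab7, of late endosomes and lysosomes, 99.7, Rab14 99.6 and Rab5c, of early endosomes, 92.4. Rab31, Rab22a, Rab21 and Rab35 lay between 67.1 and 55.9, and Rab5a, Rab5b, Rab11b, Rab4b and Rab4a between 47.6 and 38.7. The summits of Rab5b and Rab4b were shared with Pmel and Mia. Rab9b had 5.65, the lowest score of any marked vesicle gene, and Rab7b and Rab9 had no summit.

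All 8 Rabs grouped under exocytosis, polarity and cilia were marked, against 55% of all protein-coding genes. Their scores ranged from 32.1 to 81.5, with a median of 55.6. Rab28 had 81.5, Rab8a, which acts at the ciliary membrane, 60.9, Rab12 58.3, Rab8b 56.8 and Rab13, of tight junction traffic, 54.3. Rab34, which is needed for cilium formation in many cells, had 50.7, Rab10, known for traffic of the glucose transporter, 39.6, and Rab23, a negative regulator of hedgehog signalling, 32.1. The Rab13 summit was shared with the ribosomal protein gene Rps27.

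The Rabs grouped under regulated secretion, and under lysosome-related organelles and epithelia, were marked at shares near or below the 55% of all protein-coding genes. Of 8 Rabs of regulated secretion 4 were marked: Rab3a, of synaptic vesicles, with 69.5, Rab26 with 38.8, Rab3d with 32.6 and Rab37 with 23.9. The summits of Rab26 and Rab37 lay 678 and 776 bp outside these genes and were shared with Traf7 and Slc9a3r1, so 2 of the 8 had a summit of their own. Rab3b, Rab3c, Rab27a and Rab27b, the last 2 being Rabs of granule and melanosome transport, had none. Of 7 Rabs of lysosome-related organelles and epithelia 3 were marked, at 35.4 (Rab20), 12.3 (Rab32) and 7.04 (Rab29), while Rab17 and Rab25 of epithelia, Rab38 of melanosomes and Rab44 had none. The exact intervals, 15.7 to 84.3 for 4 of 8 and 9.90 to 81.6 for 3 of 7, overlapped those of the fully marked groups.

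Rabs in none of these groups were marked in 5 of 9 cases (55.6%), close to the 55% of all protein-coding genes. Rab40c, whose protein carries a SOCS box of ubiquitin ligases, had 152, the highest score of any Rab GTPase, with a second summit of 28.1 at 895 bp upstream. Rab24, linked to autophagy, had 68.9 from a summit shared with Prelid1, Rab40b 47.6, Rab15 12.48 and Rab39 9.40. Rab19, Rab36, Rab39b and Rab42 had none.

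Genes named for a partner of a Rab were all marked, with no shared summit at the top. Rab5if, named as a factor that interacts with Rab5, had 155. Rab3gap2, of the complex that acts on Rab3 and Rab18, had 101 and its partner subunit gene Rab3gap1 26.4. The Rab11 effector genes Rab11fip2, Rab11fip3 and Rab11fip5 had 97.6, 91.9 and 90.0, Rab11fip1 54.8 and Rab11fip4 20.5. Rab3ip, which encodes the exchange factor Rabin8 for Rab8, had 65.4 and its relative Rab3il1 26.9.

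The unmarked gene closest to a summit was Rab19, at 3190 bp from its ends. Among the rest of the 22 unmarked genes the nearest summit was 4549 bp away for Rab25, 4962 bp for Rab27a, 330790 bp for Rab27b and 847072 bp for Rab38. On the other side of the 1000 bp limit, the marked genes whose highest summit lay farthest outside were Rab1b at 862 bp, Rab37 at 776 bp and Copg1 at 740 bp. A window of 2500 bp would therefore add none of the 22.

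Within listed pairs of genes Sap130 often marked both, at unequal scores. The pairs were listed by hand, mostly but not always by gene name. Rab22a with Rab31 was in the list, while Rab40b with Rab40c was not, so the counts hold for this list only. Most join relatives, but Rab3gap1 with Rab3gap2 and Copb1 with Copb2 join different subunits of a complex or coat. Of 33 pairs both genes were marked in 24, 1 of them in 8 and neither in 1, which was Rab27a and Rab27b. With 82.7% of all 127 vesicle genes marked, against 55% of protein-coding genes, many such pairs come from that share alone. Rab5a was in 2 pairs, and a link within pairs was not tested. The 8 pairs with 1 marked gene were Sec31a (279) over Sec31b, Sec16a (104) over Sec16b, Rab7 (99.7) over Rab7b, Rab3a (69.5) over Rab3b, Trappc3 (55.0) over Trappc3l, Rab32 (12.3) over Rab38, Rab39 (9.40) over Rab39b and Rab9b (5.65) over Rab9. Scores lay close together at Rab22a and Rab31 (66.1 and 67.1), Rab4a and Rab4b (38.7 and 40.5) and Rab8a and Rab8b (60.9 and 56.8). They lay far apart at Sec61a1 and Sec61a2 (120 and 37.6), Rab6a and Rab6b (92.2 and 24.4) and Arf4 and Arf5 (81.9 and 25.2). The subunit genes Rab3gap1 and Rab3gap2 (26.4 and 101) also lay far apart. The Rab6a summit was in reach of Mrpl48 as well. A score has no error here, so whether the genes of a pair differ was not tested.

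**Figure D3:**
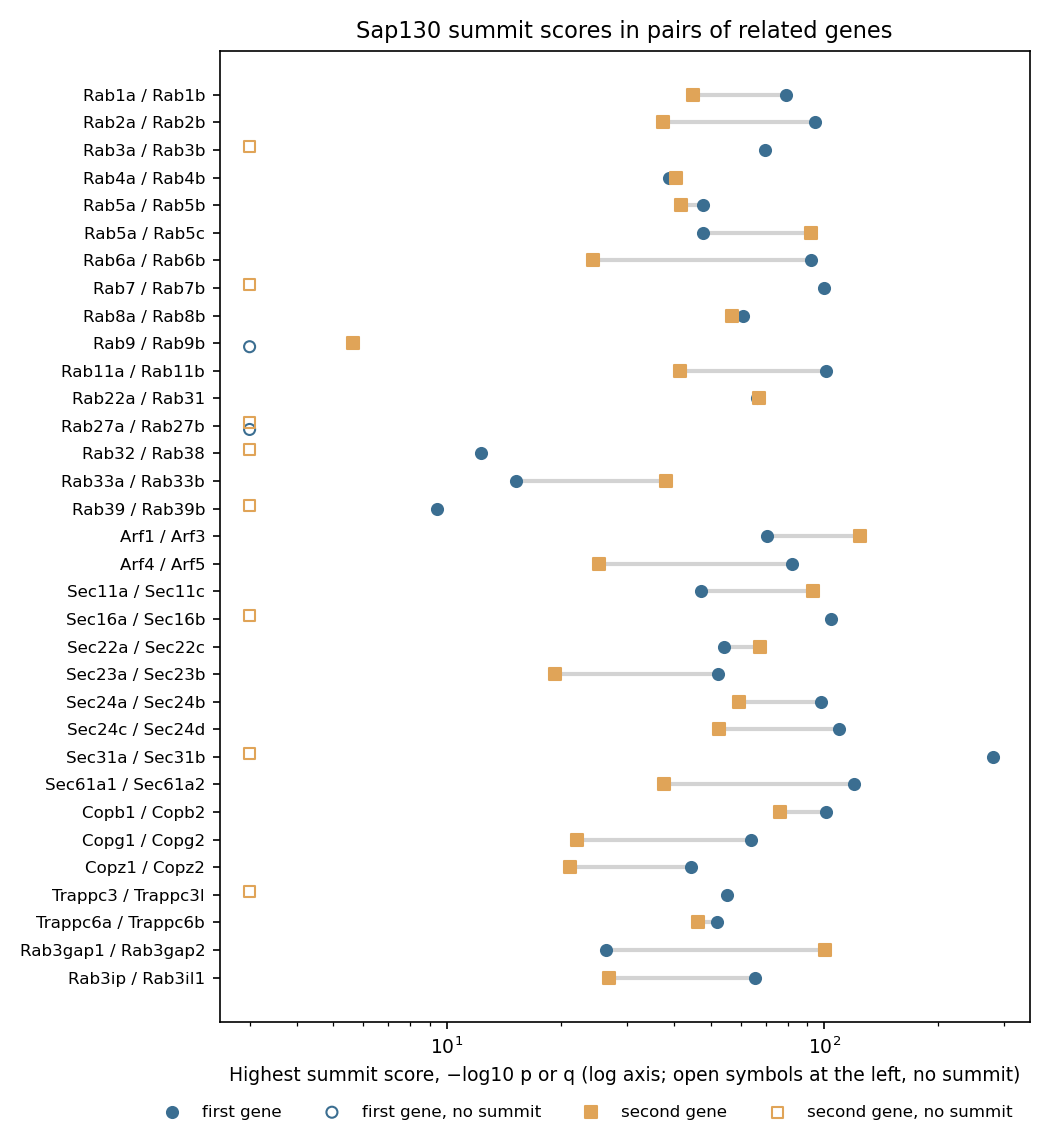
Highest summit score of both genes in 33 pairs listed by hand, on a log axis. Circles are the first gene named and squares the second. Open symbols at the left edge mark genes with no summit and carry no value; 24 pairs are joined by a line because both genes were marked.

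Strand-aware starts placed the summits just downstream of transcription starts. The RefSeq promoter table listed at least 1 start for 106 of the 127 genes and for 17492 protein-coding genes. A summit within 1000 bp of a listed start was found for 90 of the 106 (84.9%), against 52.2% of all. In 85 of these 90 the highest summit of the gene was the one near the start, at a median of 185 bp downstream (quartiles 117 and 267 bp, range -513 to 645), against 180 bp over 8848 protein-coding genes. It was downstream in 74 of the 85 (87.1%) and lay between 100 and 300 bp downstream in 54 (63.5%), against 82.8% and 60.5% of all genes. The position of the summits was thus close to that of other targets. In the other 5 genes, Copg1, Rab1b, Rab33a, Sec24c and Trappc10, the highest summit lay away from the start and was shared with a neighbour.

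**Figure D4:**
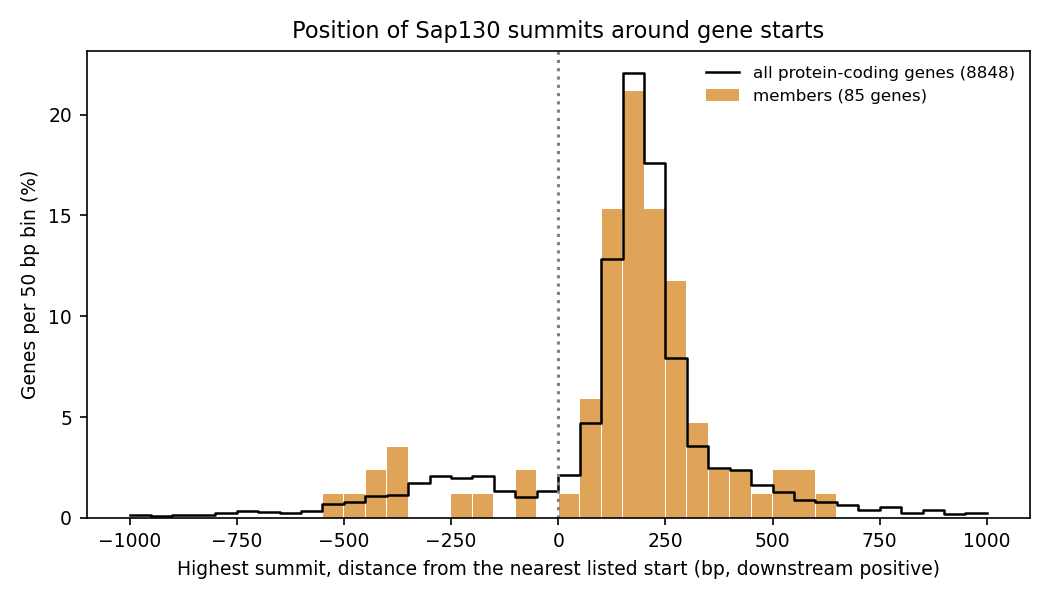
Distance of the highest summit from the nearest listed start, in bins of 50 bp, as a percent of genes; positive is downstream. Bars are the 85 vesicle genes and the line the 8848 protein-coding genes with such a summit within 1000 bp; both are highest between 150 and 200 bp.

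The genes marked only away from their boundaries had listed starts inside. Sec24d, Rab21 and Rab3il1 were marked inside the gene alone, with summits 2785, 2243 and 16698 bp from the nearest boundary. The same summits lay 90, 415 and 116 bp downstream of a listed start. All 16 genes with a listed start but no summit near it were also unmarked by the wider rule. Summits stood on both sides of a start in 14 of 90 vesicle genes (15.6%), among them Rab8a (60.9 downstream, 21.7 upstream), Rab5a (47.6 and 14.0) and Rab35 (23.7 downstream, 55.9 upstream), against 16% of all genes. The downstream summit was the higher in 10 of the 14, against 1024 of 1462 over all genes, a similar share.

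Marked and unmarked genes differed in promoter CpG content. The ratio of observed to expected CpG in the 300 bases around the outermost start (250 before and 50 after) had a median of 0.787 in 90 marked vesicle genes and 0.394 in 16 unmarked ones, against 0.793 and 0.213 over all marked and unmarked protein-coding genes. Of 82 vesicle genes with a ratio of 0.6 or more 79 were marked (96.3%), and of 24 with less 11 were (45.8%). Over all protein-coding genes these shares were 89.6% and 22.9%. A ratio of 0.6 or more was found in 77.4% of the 106 vesicle promoters, against 48.4% of all 17492. The part of CpG content in the shares marked was not tested. The 3 genes with a ratio of 0.6 or more but no summit were Rab27a, Sec14l2 and Rab39b. The Rab39b window had 35.7% G and C and 10 CpG, so its ratio of 1.06 does not mean many CpG. The genes with a lower ratio and a summit included Sec62 (ratio 0.252, score 90.0) and Rab3il1 (0.0473), whose summit lay at an inner start. Among marked genes the plot of score against CpG ratio shows high and low scores at similar ratios.

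**Figure D5:**
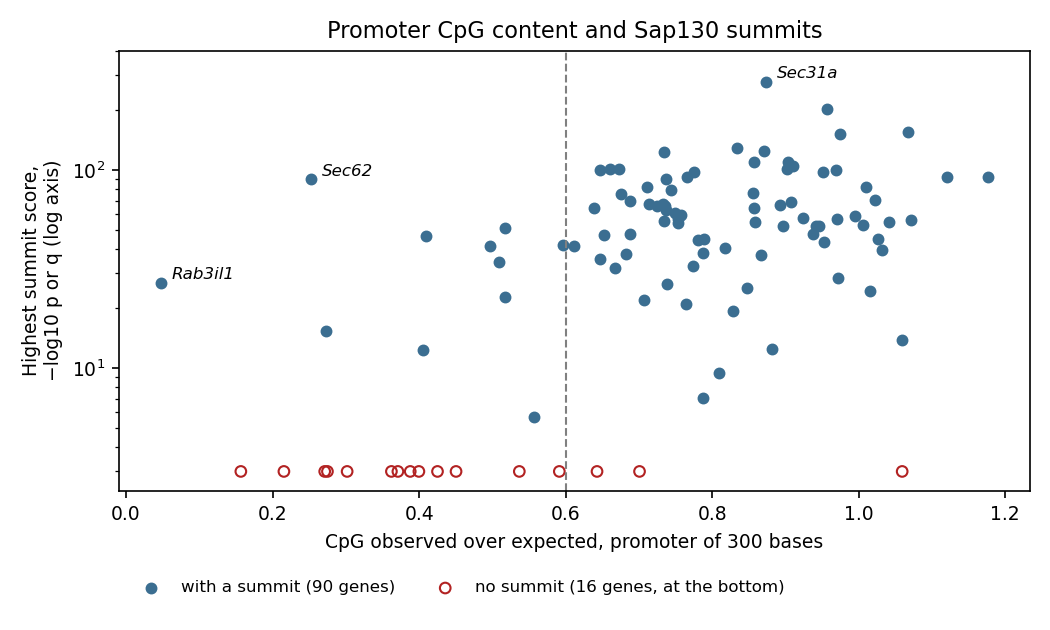
Highest summit score, on a log axis, against the CpG observed over expected ratio of the promoter, for 106 vesicle genes with a listed start. Open circles at the bottom are the 16 genes with no summit and have no score; the dashed line is the ratio of 0.6, above which 79 of 82 genes were marked.

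Promoters of coat genes often held the letters TGACGT, the core of the cyclic AMP response element. A set of 11 motifs was searched on both strands of the same 300 base windows. TGACGT was in 7 of 11 COPII and 4 of 8 COPI promoters, in 2 of 5 Arf, 7 of 48 Rab GTPase and 3 of 8 Rab-named partner promoters, in Sec1, and in none of 11 TRAPP and 6 translocon and signal peptidase promoters. Together that was 24 of 106 (22.6%), against 8.71% of 17492 protein-coding promoters and 12.4% of the marked ones. The COPII genes were Sec16a, Sec16b, Sec23a, Sec23b, Sec24a, Sec24c and Sec24d, and the COPI genes Copb1, Copb2, Cope and Copz1. The motif stood in 21 of 90 marked and 3 of 16 unmarked vesicle genes, and 16 genes are too few to compare these shares. Over all protein-coding genes it was more frequent in marked promoters (12.4%) than in all promoters (8.71%).

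The longer form TGACGTGG contains TGACGT and matches the core of the unfolded protein response element known to be bound by XBP1 and ATF6. Against 0.669% of all promoters and 0.860% of those of marked protein-coding genes, it was in 6 vesicle gene promoters (5.66%). Each of these 6 coat and Arf genes is shown with 30 bases on its own strand because it holds these letters. That they share them is therefore no separate result. Capitals mark TGACGTGG or its complement CCACGTCA.

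Arf1, chr11:59228228-59228257, minus strand: gcggcaggcgcTGACGTGGctgccgtcagc

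Copb1, chr7:114254690-114254719, minus strand: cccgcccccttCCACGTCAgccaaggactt

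Copb2, chr9:98563713-98563742, plus strand: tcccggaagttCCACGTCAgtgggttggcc

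Sec16b, chr1:157506741-157506770, plus strand: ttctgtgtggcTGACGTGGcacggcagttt

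Sec23a, chr12:59011993-59012022, minus strand: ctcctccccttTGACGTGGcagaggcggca

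Sec24d, chr3:123267459-123267488, plus strand: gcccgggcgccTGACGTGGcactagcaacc

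The first base of the element was 44 to 7 bases before the start in Sec16b (position -44), Copb1 (-28), Sec24d (-26) and Copb2 (-7), and at bases 7 and 22 of the transcript in Sec23a and Arf1. Scores were 101 at Copb1, 76.0 at Copb2, 70.4 at Arf1, 52.5 at Sec24d and 52.1 at Sec23a, and Sec16b had no summit. The element was thus in 5 of 90 marked and 1 of 16 unmarked vesicle genes.

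The other motifs were read in the same way. The GC box GGGCGG was in 70 of 90 marked and 6 of 16 unmarked vesicle genes (77.8% and 37.5%), against 67.7% of all marked protein-coding genes. CCGGAAG was in 22 of the 90 (24.4%), against 18.9%, and in 5 of 11 TRAPP promoters. The E-box CACGTG, bound by Max and its Mxd partners that recruit Sin3, was in 12 of the 90 (13.3%), against 10.6% of all marked genes. It was in 0 of 16 unmarked genes, too few to read for a motif in 7.91% of all protein-coding promoters. TCACGTGA, which contains the E-box and is the core of sites of lysosomal regulators, was in 5 of the 90 (5.56%), which were Rab5a, Rab21, Rab24, Sec23ip and Sec62, against 1.95% of all marked genes. The CCAAT box was in 42.2% of marked vesicle genes, the YY1 core AAGATGGC in 6.67%, TATAAA in 4.44%, the NRF1 core GCGCATGCG in 3.33% and the E2F core TTTCCCGC in 1.11%, against 38.9%, 4.92%, 6.23%, 4.05% and 2.29% of all marked genes. No match was tested as a site, and a missing match says only that these letters are not in the window.

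Genes of the same pathway under other names were also mostly marked. In 4 lists of such partners 104 of 107 genes were marked (97.2%, exact interval 92.0 to 99.4), with a median score of 61.9, against 55% of all protein-coding genes and a median of 48.9 over the marked ones. The lists were chosen by hand with earlier results of these data known. They are not a sample of the pathway, and the interval does not cover that choice. Coat partners were marked in 30 of 30 cases, with Ap1m1, of a clathrin adaptor, and Clta, of clathrin light chain, at 144 each, and with Arcn1, the delta subunit of COPI, and Sar1a, the GTPase that starts COPII assembly, at 108 each. Partners of translocation were marked in 19 of 19, with Srp72, of the signal recognition particle, at 176 and Hspa5, the chaperone BiP, at 134. Golgi SNAREs and tethers were marked in 29 of 30, led by Scfd2 at 276 and Cog5 at 130, the latter shared with a neighbour, and Scfd1 had none. Regulators of the Rab cycle were marked in 26 of 28, led by Tbc1d15 at 98.6 and Tbc1d20 at 93.3. The 2 unmarked were Chm and Chml, which encode the escort proteins that present Rabs for prenylation.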

How the data were processed

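ChIP and input libraries were aligned and peaks called by the authors; the submitters' processing notes name Bowtie 1.1.2, MACS2 2.1.0.20140616 and build GRCm38 (mm10), while settings and threshold are stated in no source used here. The authors deposited 1 list of summits with a −log10 p or q score; which of these it is could not be settled. The score grows with depth as well as enrichment and was used only to rank within the list. Library depth is unknown, and input values are not in the list. The members, families, Rab groups, partner lists, pairs and motifs were chosen with earlier results of these data known.

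Summits were assigned to genes of the RefSeq table (GRCm38.p6), leaving out the mitochondrial genome, genes on no named chromosome and those in the first 3 Mb of any chromosome except Y, taken as scaffolds. Starts, strands and sequences came from the RefSeq promoter table, which held no entry for 21 members: Arf6, Rab11fip1, Rab11fip4, Rab18, Rab26, Rab27b, Rab2a, Rab30, Rab36, Rab37, Rab38, Rab44, Rab4a, Rab7b, Sec11c, Sec14l4, Sec61a1, Trappc1, Trappc4, Trappc8 and Trappc9. All 107 partner symbols matched, and 33 of 34 listed pairs. Protein identities were not computed. Every member could be named; of the partners the 2 highest scores and all unmarked genes of each list, and Arcn1 and Sar1a, named after their values were seen. Intervals are exact (Clopper-Pearson). The use of listed starts and the CpG ratio were chosen after seeing the data. The assignment was tested on simulated summits. Python 3.11.15 was used with numpy 2.4.6, pandas 2.3.3, scipy 1.17.1 and matplotlib 3.10.9.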

Additional observations from a re-analysis of the deposited data

How the results depend on the processing

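The share of vesicle genes marked stayed above that of all protein-coding genes under each of the 8 other settings, by 12.0 to 32.7 percentage points. With summits at or above the median score it was 65.4% against 36.0%, in the upper quartile 31.5% against 19.5%, and without summits in reach of several genes 66.9% against 42.4%. For all genes it was also 55.9% with a window of 2500 bp, 48.4% with gene ends only and 52.2% near listed starts. At or above the median score TRAPP fell to 66.7% and Rab GTPases to 57.6%. In the upper quartile the shares were 37.5% for COPI, 36.4% for COPII, 50% for translocon and signal peptidase, 20% for TRAPP, 22% for Rab GTPases and 60.0% for Rab-named partners. Without shared summits they were 62.5% for COPI, 46.7% for TRAPP and 62.7% for Rab GTPases. The other 64 of 84 values stayed inside the interval of the reported value, and merging summits within 500 bp and a window of 500 bp moved none past it. The unknown depth limits which weak summits could be called, so a gene without a summit is not shown to lack Sap130.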

Other observations

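Several vesicle genes stand near each other. On chromosome 6 Rab43 (57.2), Copg1 (63.9) and Rab7 (99.7) lie in a row with gaps of 75655 and 85511 bp, each with a summit. On chromosome 17 Rab40c (152) and Rab11fip3 (91.9) are 69322 bp apart, and on chromosome 12 Sec23a (52.1) and Trappc6b (46.3) 31075 bp apart. On the X chromosome Trappc2 (13.9) and the unmarked Rab9 are 4111 bp apart.

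The vesicle genes on the X chromosome had low scores. Of 5 there 3 were marked, with a median of 13.9, against 55.5 for the marked genes on autosomes. Over all protein-coding genes the medians were 19.6 for 326 marked genes on X and 50.1 for 11646 on autosomes, and 33.9% and 56.6% were marked.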
